A study of Mus musculus with 4 samples.

Results

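Cd209a dendritic cells made up 262 of the 31143 barcodes with more than 500 detected genes in 4 single-cell RNA-seq libraries of MC38 tumors, 51 of 7292 in WT IgG, 77 of 6840 in WT anti-PD1, 49 of 8132 in A159V IgG and 85 of 8879 in A159V anti-PD1. A cell was included if it held at least 1 UMI of Cd209a (a UMI is a molecular tag that counts 1 captured transcript), at least 5 UMIs of H2-Ab1 and Cd74 combined, and no UMI of Xcr1, Clec9a, Ccr7, C1qa, C1qb, C1qc, Cd3d, Cd3e, Cd3g, Cd79a or Hmga2. Cd209a itself, the MHC class II genes H2-Ab1 and Cd74, and the 11 excluded genes therefore chose the cells, and their values are given as descriptions only. Cd209a (ENSMUSG00000031494) lies on the minus strand at chr8:3743397-3748984 of GRCm38.

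MC38 is a colon adenocarcinoma line of C57BL/6 mice. The tumor cells were either wild type (WT) or a CRISPR knock-in line, clone 9, with the A159V change in both alleles of Rac1, a small GTPase of the actin cytoskeleton. C57BL/6 mice bought at 6 to 8 weeks of age carried the tumors and received control IgG or an antibody against PD1 (anti-PD1) every 3 days from day 3, and tumors were taken on day 13. Dissociated CD45+ and CD45- cells were separated on beads and remixed 2 to 1, with 1 library per group and the number of mice behind each library not given in the sources used here. The cells described here belong to the host and carry no edit, so A159V refers to the tumor they came from. With 1 library per group there was no replicate and no test: every interval below is a 95% interval for counting error within a library, and does not include the difference between tumors. Values of the 4 libraries are given in the order WT IgG, WT anti-PD1, A159V IgG, then A159V anti-PD1.

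Type 2 conventional dendritic cells take up antigen and present it on MHC class II to CD4 T cells. Many carry Cd209a, a mouse relative of the human lectin DC-SIGN, together with the galactose-binding lectin Mgl2 (CD301b), and depend on the growth factor receptor Flt3 and the transcription factor Irf4. In inflamed tissue, monocytes can also acquire Cd209a and MHC class II, and Cd209a alone does not tell the 2 origins apart.

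The WT anti-PD1 library stood apart from the other 3 before any Cd209a+ cell was considered. Its tumor gate (Hmga2 present, Ptprc absent) held 140 cells, against 1096, 1888 and 1558 in the other 3, its stroma gate held 1418 against 232, 169 and 176, and its Ly6c2 monocyte gate held 201 against 1162, 1022 and 1293. Of those 140 cells, 32.9% held a UMI of the tumor markers Rhox5, Prl2c2, Krt8 or Krt18, against 98.3%, 98.9% and 98.3% in the other 3. A UMI of the collagen genes Col1a1, Col1a2 or Col3a1 was found in 99.3% of the 140, against 56.6%, 38.0% and 55.8%. The 140 are therefore not read as a count of tumor cells. Total UMIs per library were 93030164, 54402632, 113779013 and 125227747. Cd209a+ cells were compared between genotypes (A159V over WT, under IgG and under anti-PD1) and between antibodies (anti-PD1 over IgG, in WT and in A159V). The genotype comparison under IgG and the antibody comparison in A159V do not use WT anti-PD1, and their values stand beside those of the other 2 throughout. The 4 libraries shared 90 cell barcodes in pairs, and no Cd209a+ cell was among them.

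Depth also differed between the Cd209a+ cells of the libraries. Their median was 4814, 7821, 2866 and 4563 UMIs and 1916, 2784, 1393 and 1951 genes, and their summed UMIs were 378646, 670685, 148586 and 433994. In WT IgG the 5 deepest cells held 38.8% of the summed UMIs, against 13.9%, 20.5% and 16.0% in the other libraries. Predicted doublets (barcodes scored as 2 cells) numbered 6, 5, 1 and 6. Levels below are counts per 1000000 UMIs (CPM), the UMIs of a gene scaled by the summed UMIs of the Cd209a+ cells of a library, and a ratio is the log2 ratio of 2 such levels after 5 CPM was added to each.

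Many cells sat close to the limits of the rule. Of 426 barcodes with a Cd209a UMI, 262 were kept, and of these 83 held 1 Cd209a UMI, 37 held 2 and 142 held 3 or more, with 54 as the highest. The median was 2, 5, 2 and 2 Cd209a UMIs per cell. Just outside, 2146 barcodes met every part of the rule but had no Cd209a UMI, and 123 barcodes with Cd209a were left out only by an excluded gene, 42 of them by 1 such UMI. C1q genes were found in 41 of those 123, Cd3 genes in 52, Xcr1 or Clec9a in 24, Hmga2 in 20, Ccr7 in 15 and Cd79a in 2. A further 23 had fewer than 5 UMIs of H2-Ab1 and Cd74, while 14 cells just inside had 5 to 9, out of a range of 5 to 395. Stray Cd209a was present but low: T cells, which do not make it, held a Cd209a UMI in 0.456%, 1.71%, 0.650% and 1.52% of 877, 1052, 615 and 919 cells at median depths of 3465, 3848, 2381 and 2878 UMIs. The tumor gate held Cd209a in 0.274% of cells in WT IgG, 0.0530% in A159V IgG, 0.193% in A159V anti-PD1 and 0 of 140 in WT anti-PD1, which allows a share of up to 2.14%. Most of those 140 cells held none of Rhox5, Prl2c2, Krt8 and Krt18, as given above.

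The other markers of the label were all present, though not at like levels in the 4 libraries. Mgl2 reached 84.5, 1153, 329.8 and 373 CPM, and a Mgl2 UMI was found in 13.7%, 70.1%, 14.3% and 32.9% of the cells (6.15%, 55.6%, 13.8% and 22.4% after each cell was thinned to 1500 UMIs), against 0.570%, 2.09%, 0.325% and 0.979% of T cells. Thus most Cd209a+ cells of WT anti-PD1 had Mgl2, and few of those from the IgG-treated tumors did. Flt3 was at 60.7, 173, 101 and 129 CPM, Zfp366, a zinc finger factor of dendritic cells, at 71.3, 131, 108 and 96.8 CPM, and Ciita, the master activator of MHC class II genes, at 151, 216, 296 and 364 CPM. Flt3 was detected in 23.5%, 41.6%, 22.4% and 41.2% of the cells (10.3%, 17.6%, 12.6% and 18.7% thinned) and in 1.48%, 2.19%, 1.63% and 1.41% of T cells. The 4 markers outside the rule summed to 367, 1673, 835 and 963 CPM in Cd209a+ cells. In C1q macrophages the same 4 summed to 44.7, 125, 21.8 and 44.5 CPM, and in Ly6c2 monocytes to 47.5, 91.4, 41.6 and 49.004 CPM. They did not set the cells apart from other dendritic cells, where they summed to 446, 1282, 662 and 911 CPM in the type 1 gate and 569, 1132, 439.8 and 796 CPM in the mature gate. All 7 genes of a conventional dendritic list (Flt3, Zbtb46, Dpp4, Kit, Bcl11a, Btla and Itgax) were detected in each library. All 7 were also detected in Ly6c2 monocytes of each library, so detection alone did not set the cells apart. Their summed level was 592, 1279, 956 and 912 CPM in Cd209a+ cells. It was 141, 134, 180 and 130 CPM in Ly6c2 monocytes and 111, 73.5, 84.7 and 65.2 CPM in C1q macrophages. In the type 1 gate it was 947, 2207, 1134 and 1510.5 CPM, and in the mature gate 695, 1423, 577 and 1353 CPM.

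Monocyte genes were found in the same cells, and to that extent the data go against the label. Of a list of 10 monocyte genes, 10, 9, 9 and 10 were detected, with a summed level of 4558, 2483, 6737 and 5671 CPM and only Chil3 at 0 in WT anti-PD1 and A159V IgG. Plac8 and Ms4a4c made up most of that level in each library, and Ms4a4c is also in the type I interferon-stimulated list used below. Ly6c2, the surface antigen of inflammatory monocytes, was detected in 47.1%, 22.1%, 34.7% and 43.5% of the cells (31.5%, 11.9%, 25.8% and 28.1% thinned), and Fcgr1, the high-affinity Fc receptor of monocytes and macrophages, in 64.7%, 25.97%, 59.2% and 55.3% (32.5%, 9.58%, 41.7% and 27.4% thinned). The T gate held a Fcgr1 UMI in 7.30%, 2.28%, 7.97% and 8.49% of cells, and NK cells held a Ly6c2 UMI in 20.3%, 17.8%, 17.3% and 22.6%. The stroma gate, at median depths of 17850, 13362, 8210 and 11416 UMIs, held Ly6c2 in 8.62%, 2.89%, 4.14% and 3.98%. The NK cells had median depths of 4865, 3761.5, 5362 and 4532 UMIs. In WT anti-PD1, where the Cd209a+ cells were deeper than the NK cells, the share with Ly6c2 without thinning lay inside the counting interval of the NK share (13.8 to 22.5). It was above the share of the stroma gate, and whether the Ly6c2 of NK cells was stray or their own was not tested. Neutrophils, at median depths of 1439, 1721, 1552 and 1407 UMIs, held Ly6c2 in 28.3%, 20.3%, 41.7% and 21.1% of cells. They held Fcgr1 in 13.3%, 1.67%, 20.8% and 15.1%. Beside these, the thinned Ly6c2 share of Cd209a+ cells was lower in WT anti-PD1 and A159V IgG, and the thinned Fcgr1 share was higher in every library. At least 1 of the pair was present in 36 of 51, 32 of 77, 32 of 49 and 61 of 85 cells. They are therefore called Cd209a+ cells from here on, by the gene that chose them.

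Some cells held monocyte and dendritic genes at once. Cells with Ly6c2 or Fcgr1 and also Mgl2, Flt3, Zbtb46 or Zfp366 made up 35.3%, 33.8%, 34.7% and 54.1%, cells with the monocyte pair only 35.3%, 7.79%, 30.6% and 17.6%, and cells with the dendritic genes only 27.5%, 54.5%, 28.6% and 21.2%. Thinned to 1500 UMIs, the share with both was lower, at 13.04%, 11.8%, 18.3% and 19.5%. The dendritic-only share was then 20.1%, 61.8%, 26.7% and 33.4% and the monocyte-only share 37.0%, 7.90%, 33.6% and 24.2%. On both scales WT anti-PD1 had the highest dendritic-only and the lowest monocyte-only share. Of these dendritic genes, Mgl2 was found in far more cells of WT anti-PD1 than of any other library, as given above. Flt3 was found in nearly the same share of cells in both anti-PD1 libraries. The dendritic-only share therefore depends on Mgl2, and was not computed without it. Within each library, the cells with Ly6c2 or Fcgr1 had less Flt3 than those without, at 45.9 against 105, 101 against 221, 92.02 against 118 and 91.6 against 244 CPM. Plac8, a gene high in inflammatory monocytes, went the other way, at 2695 against 1707, 1084 against 499.6, 4703 against 1851 and 3510.2 against 2049 CPM. Mgl2 was lower in the cells with Ly6c2 or Fcgr1 in all 4 libraries, at 63.6 against 147, 794 against 1392, 225 against 532 and 342 against 470.04 CPM. In both subsets its level was highest in WT anti-PD1 and lowest in WT IgG, while the order of the 2 A159V libraries differed. Irf8, a factor of type 1 dendritic cells and monocytes, was higher in the cells with Ly6c2 or Fcgr1, at 215 against 168, 134 against 19.9, 133 against 19.7 and 205 against 94.01 CPM.

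**Figure D1:**
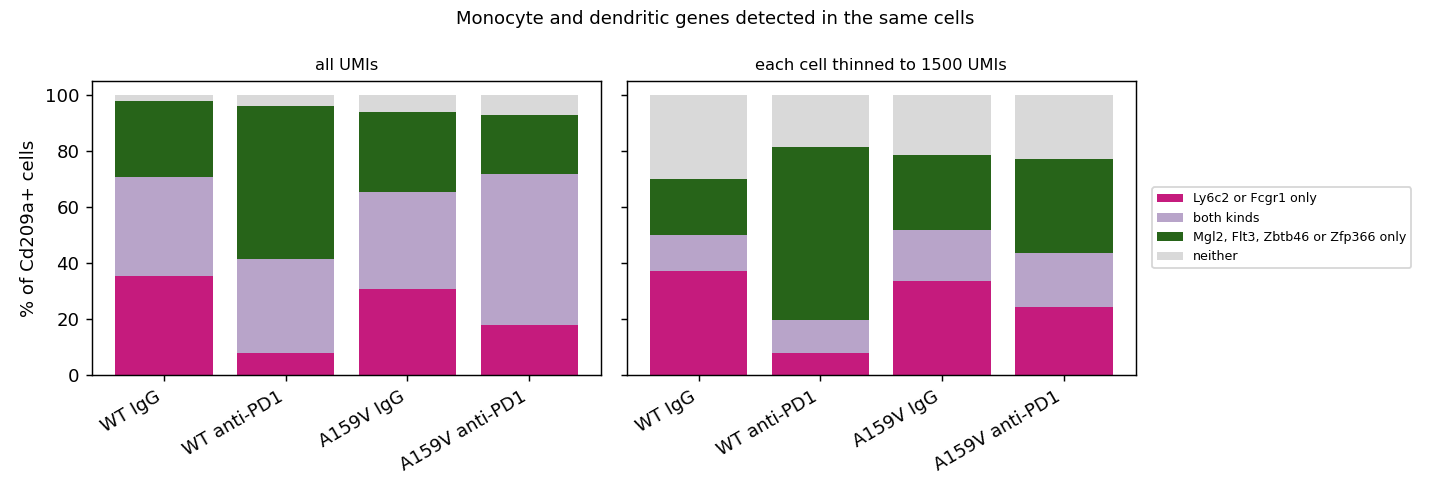
Share of Cd209a+ cells in each library (% of cells, stacked bars) with UMIs of Ly6c2 or Fcgr1 only, of Mgl2, Flt3, Zbtb46 or Zfp366 only, of both kinds or of neither, with all UMIs (left) and with each cell thinned to 1500 UMIs (right). The dendritic-only part is tallest in WT anti-PD1, 54.5% with all UMIs and 61.8% thinned.

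Against other cells of the same libraries, Cd209a+ cells stood out by a small set of genes. These ratios describe cells picked by their own counts and carry no test. Of 1110 genes considered, 74 were at least 2-fold higher than in C1q macrophages in every library, 70 than in mature (Ccr7) dendritic cells, 45 than in Ly6c2 monocytes and 13 than in type 1 (Xcr1 or Clec9a) dendritic cells. Klrd1, the lectin-like receptor CD94, led against C1q macrophages, at 504, 316, 935 and 493 CPM in Cd209a+ cells and 5.19, 3.52, 18.3 and 6.14 CPM in macrophages (log2 ratio 5.24 to 5.64 over the libraries). Bcl11a, a factor needed for dendritic development, was higher than in macrophages by 4.69 to 6.03, than in mature dendritic cells by 2.69 to 4.67 and than in monocytes by 2.16 to 4.08. Clec10a, a galactose-type lectin and neighbor of Mgl2, led against monocytes at 3.18 to 4.52, where H2-Aa (2.19 to 3.76), H2-Eb1 (2.28 to 3.76) and Ciita (2.15 to 3.498) were also higher. Against type 1 dendritic cells, Cxcl10, a chemokine for CXCR3+ T cells, led with 2092, 369.8, 1434 and 1332 against 578, 82.1, 371 and 306 CPM (1.85 to 2.10). Sirpa, the CD47 receptor that marks type 2 dendritic cells, was higher than in type 1 cells by 1.24 to 2.45. Against mature dendritic cells, Ccr2, the receptor for Ccl2, was higher by 2.02 to 3.63 and the integrin Itgam by 1.93 to 2.74.

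**Figure D2:**
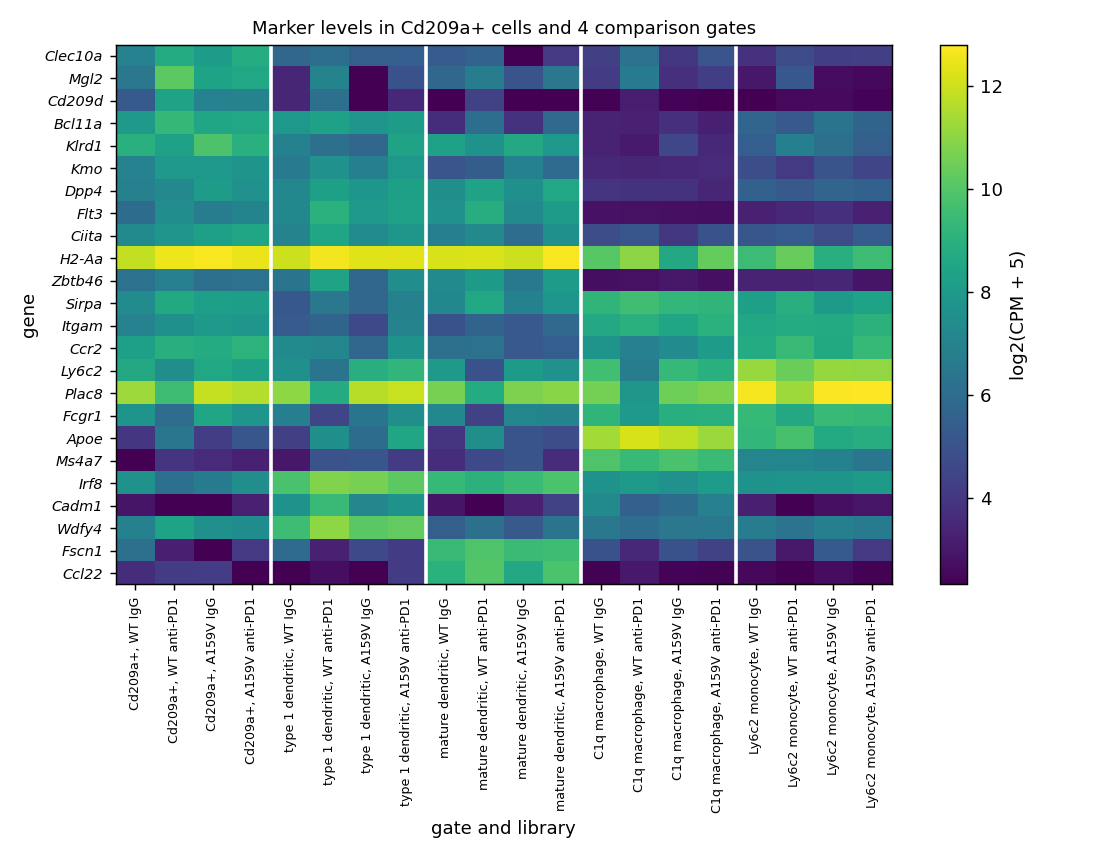
Heat map of log2(CPM + 5) for 24 marker genes (rows) in Cd209a+ cells and in type 1 dendritic, mature dendritic, C1q macrophage and Ly6c2 monocyte gates, each split into the 4 libraries (columns). Ly6c2 and Fcgr1 appear in Cd209a+ cells beside Flt3 and Mgl2, and the Mgl2 level is highest in Cd209a+ cells of WT anti-PD1 at 1153 CPM.

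To ask how abundant the cells were, their share of immune barcodes (those with a Ptprc, CD45, UMI) was compared, since the bead mix set the share of all barcodes. The share was 1.01% (exact binomial interval 0.743 to 1.33; 48 of 4768 cells) in WT IgG, 1.71% (1.34 to 2.14; 74 of 4336) in WT anti-PD1, 1.05% (0.768 to 1.40; 46 of 4390) in A159V IgG, and 1.40% (1.12 to 1.73) or 85 of 6080 cells in A159V anti-PD1. Both IgG libraries had nearly the same share, and both anti-PD1 libraries had a higher one. The fold was 1.70 (1.18 to 2.43) for anti-PD1 over IgG in WT and 1.33 (0.934 to 1.91) for anti-PD1 over IgG in A159V, and only the first interval excluded 1. Stray Cd209a in T cells, given above, was also higher with anti-PD1 in both genotypes, with overlapping counting intervals. Its part in these folds was not tested. With at least 2 Cd209a UMIs per cell the folds were 2.06 in WT and 1.34 in A159V. The genotype fold was 1.04 (0.696 to 1.56) with IgG and 0.819 (0.601 to 1.12) with anti-PD1. In cells without a Ly6c2 UMI the fold of A159V over WT under anti-PD1 was 0.580 and that of anti-PD1 over IgG in WT was 2.50, and in cells with neither Ly6c2 nor Fcgr1 these were 0.389 and 3.46. As Fcgr1 is also an interferon gamma response gene, the folds without it cannot be told apart from the interferon difference. Type 1 dendritic cells took 0.755%, 1.52%, 0.456% and 0.493% of immune barcodes, a fold of 0.324 (0.211 to 0.498) for A159V over WT under anti-PD1 and 0.603 (0.350 to 1.04) for A159V over WT under IgG. Counted among the 3 dendritic gates together, Cd209a+ cells were 32.9%, 37.7%, 40.5% and 48.9%. With that denominator the fold of A159V over WT under anti-PD1 was 1.29 (1.03 to 1.63), above 1 where the share of immune barcodes was below it.

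**Figure D3:**
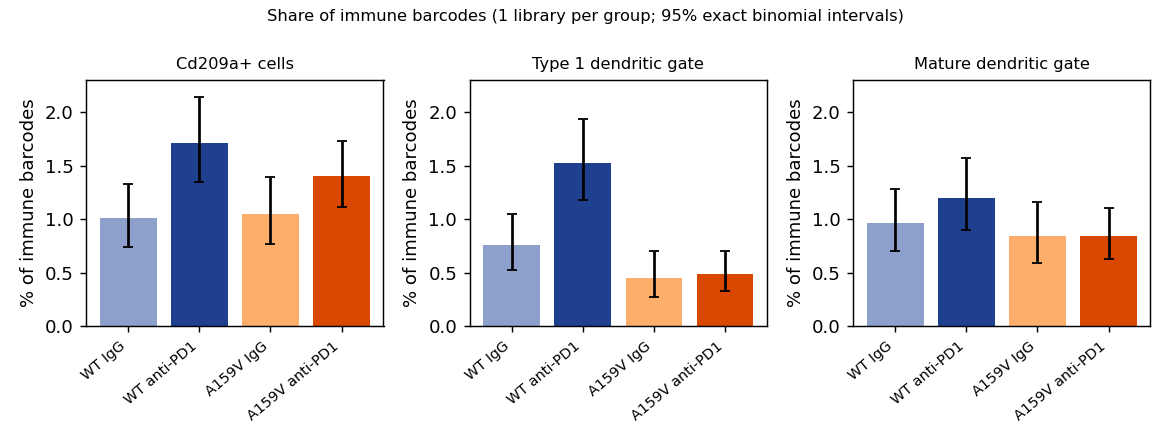
Percent of immune barcodes in each library (bars from 0, exact 95% binomial intervals, 1 library per group) that were Cd209a+ cells, type 1 dendritic gate or mature dendritic gate. Cd209a+ cells ranged from 1.01% (WT IgG) to 1.71% (WT anti-PD1), and the type 1 gate was at 0.493% in A159V anti-PD1 and 1.52% in WT anti-PD1.

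Gene levels in Cd209a+ cells were compared between libraries where a gene reached 100 CPM in 1 of the 2 libraries and a UMI in 10% of its cells. For A159V over WT under IgG, 139 of 2178 genes were higher by 2-fold or more (6.38%) and 145 lower (6.66%). Under anti-PD1, the same comparison had 145 of 2264 higher (6.40%) and 195 lower (8.61%). For anti-PD1 over IgG in WT, 377 of 2355 were higher (16.0%) and 296 lower (12.6%), and for anti-PD1 over IgG in A159V, 62 of 2149 were higher (2.89%) and 51 lower (2.37%). The median log2 ratio over all those genes was 0.13, -0.10, 0.23 and -0.018 in these comparisons. Scaled by the median of ratios, the anti-PD1 over IgG in WT median became 0.11, and the higher calls were 47.5% of all calls in place of 56.0%. Under anti-PD1 the higher calls for A159V over WT were 51.6% in place of 42.6%. Comparisons that have a library in common are not independent, and their values are given side by side only.

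C-type lectins, the family of Cd209a that binds sugars on pathogens and glycoproteins, included Mgl2, Mrc1, Cd209d and Cd209e, each of which had its highest level in Cd209a+ cells of WT anti-PD1. Of 8 list genes at the minimum level in anti-PD1 over IgG in WT, 6 were higher (Cd209e, Mrc1, Mgl2, Cd209d, Clec4a1 and Clec10a) and none lower, with a list median of 2.53. In A159V over WT under anti-PD1, 4 of 8 were lower (Cd209e, Mrc1, Mgl2 and Cd209d), with a median of -1.15. In A159V over WT under IgG, 4 of 6 were higher (Mgl2, Cd209d, Mrc1 and Clec10a, median 1.19), and in anti-PD1 over IgG in A159V 0 of 7 passed 2-fold (median 0.43). Without predicted doublets these were 6 of 8 higher (1.85), 5 of 8 lower (-1.17), 2 of 6 higher and 1 lower (0.69) and 0 of 7. Mgl2, whose levels are given above, had ratios of 1.90 (1.29 to 2.52) for A159V over WT under IgG, -1.61 (-1.85 to -1.37) for A159V over WT under anti-PD1 and 3.69 (3.21 to 4.18) for anti-PD1 over IgG in WT. Its level in A159V tumors was thus between those of WT IgG and WT anti-PD1 with either antibody. Over all other cells of the libraries together, the Mgl2 ratio was 2.32 for anti-PD1 over IgG in WT. For A159V over WT under IgG it was -0.30. The Mgl2 difference in WT, though smaller in the other cells, was thus not particular to Cd209a+ cells.

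Mrc1, the mannose receptor CD206, was at 84.5, 1270.3, 209 and 283 CPM and was detected in 13.7%, 72.7%, 26.5% and 37.6% of the cells. WT anti-PD1 was again the highest and WT IgG the lowest. The ratio was 3.83 (3.35 to 4.31) for anti-PD1 over IgG in WT and -2.14 (-2.41 to -1.88) for A159V over WT under anti-PD1. Over all other cells of the libraries together the Mrc1 ratio was similar, at 3.42 and -2.82, so this difference was not particular to Cd209a+ cells. Of the other gates in WT anti-PD1, C1q macrophages had the highest Mrc1 level. Cd209d, a neighbor of Cd209a at chr8:3871824-3878555, was at 34.3, 322, 121 and 124 CPM, and Cd209e, at chr8:3847965-3854309 in the same cluster, was at 2.64, 373, 6.73 and 29.95 CPM from 1, 250, 1 and 13 UMIs. Cd209e was therefore nearly all from WT anti-PD1, where 33.8% of the cells held it. Cd209a, Cd209d and Cd209e transcripts shared no 50-base stretch, whereas Mgl2 and Clec10a (chr11:70130329-70137550 and chr11:70156197-70170834) shared 270, 12.2% of those of Mgl2 and 8.49% of those of Clec10a. Clec10a itself was at 121, 435, 269 and 445 CPM, with a ratio of 0.030 (-0.23 to 0.29) between both anti-PD1 libraries. Cd209a, which chose the cells, was at 584, 1172, 855 and 797 CPM. In the other gates of the same libraries the lectin median for anti-PD1 over IgG in WT was 1.73 in type 1 dendritic cells, 0.92 in mature dendritic cells, 0.57 in C1q macrophages and 0.61 in Ly6c2 monocytes.

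Stray stromal RNA moved with the same contrast. Col1a1, Col1a2 or Col3a1, genes of fibroblast collagen, were found in 13.7%, 90.9%, 4.08% and 16.5% of Cd209a+ cells, and in 12.2%, 85.4%, 8.94% and 18.5% of T cells. The 6 stroma markers summed to 164, 1512, 13.5 and 62.2 CPM in Cd209a+ cells, with all 6 detected in WT anti-PD1. Genes over 5 times higher in another cell class were not named as top genes, and whether free RNA of other cells had a part in the remaining differences was not tested. Tumor markers (Rhox5, Prl2c2, Krt8 or Krt18) were found in 9 of 51, 0 of 77, 8 of 49 and 6 of 85 cells. The 9 cells of WT IgG held 46.3% of that library's summed UMIs, had a median of 15209 UMIs against 4538 for the rest, and included all 6 of its predicted doublets. Krt8 and Krt18 were at 0 in Cd209a+ cells of every library, and hemoglobin genes were at 0 as well.

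**Figure D4:**
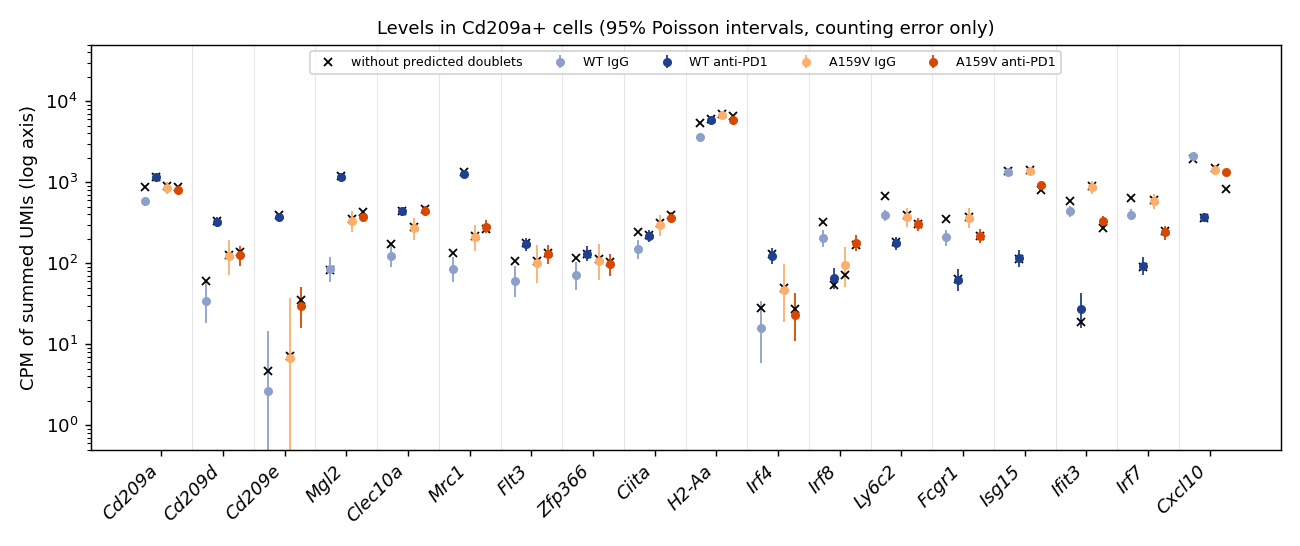
CPM on a log axis of 18 genes (x axis) in Cd209a+ cells of the 4 libraries, as dots with 95% Poisson intervals for counting error, with crosses for the levels without predicted doublets. Mgl2, Mrc1, Cd209d and Cd209e are highest in WT anti-PD1, and Isg15, Ifit3, Irf7 and Cxcl10 are lowest there, Isg15 at 115 CPM.

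Type I interferon-stimulated genes, which act against viruses and mark recent interferon signaling, were mostly at their lowest level in WT anti-PD1. Their products include Isg15, a ubiquitin-like protein, and the Ifit proteins, which bind foreign RNA. In 250 bases upstream of the start of Ifit1, Ifit3 and Isg15, the core of the interferon-stimulated response element, searched on both strands as GAAA, any 2 bases and GAAA, was present 2, 2 and 3 times. These windows are shown because the 3 genes stand for the list described next, on RefSeq annotation of GRCm38.p6 (Ifit1 at chr19:34640639-34640888, plus strand; Ifit3 at chr19:34583279-34583528, plus strand; Isg15 at chr4:156200819-156201068, minus strand). Capitals mark the matches, which overlap each other in Isg15.
Ifit1: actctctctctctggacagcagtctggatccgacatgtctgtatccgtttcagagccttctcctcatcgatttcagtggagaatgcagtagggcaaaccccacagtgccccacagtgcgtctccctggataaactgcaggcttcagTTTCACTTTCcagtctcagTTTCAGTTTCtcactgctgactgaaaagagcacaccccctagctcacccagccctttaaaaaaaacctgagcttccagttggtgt
Ifit3: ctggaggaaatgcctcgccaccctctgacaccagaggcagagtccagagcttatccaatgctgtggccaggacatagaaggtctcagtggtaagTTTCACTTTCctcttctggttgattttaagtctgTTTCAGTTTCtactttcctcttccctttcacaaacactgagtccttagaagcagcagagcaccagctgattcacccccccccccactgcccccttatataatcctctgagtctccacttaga
Isg15: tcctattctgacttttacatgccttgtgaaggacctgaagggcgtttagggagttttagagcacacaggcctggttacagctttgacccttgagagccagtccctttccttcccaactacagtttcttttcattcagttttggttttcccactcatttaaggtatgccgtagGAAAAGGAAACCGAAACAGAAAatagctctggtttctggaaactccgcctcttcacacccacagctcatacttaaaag

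The motif was found in 978 of 32851 promoter windows of the same length (2.98%). It was found for 11 of the 23 interferon list genes with a window (47.8%), for 1 of 19 C-type lectins (Clec4b1) and for 1 of 13 MHC class II genes (Ctss). A match describes the sequence and not a bound site.

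Isg15 was at 1344, 115, 1359.5 and 924 CPM, in 90.2%, 36.4%, 79.6% and 78.8% of the cells (70.5%, 13.96%, 69.6% and 52.97% thinned). Only WT anti-PD1 was low, with a ratio of -3.49 (-3.83 to -3.16) over WT IgG and of 2.95 (2.62 to 3.29) for A159V anti-PD1 over it. Ifit3 was at 436, 26.8, 861 and 327 CPM, and Ifit1 at 251, 44.7, 256 and 184 CPM. Ifit2 was at 401, 22.4, 727 and 306 CPM, Rsad2 (viperin) at 507, 50.7, 734 and 454 CPM and Usp18, which removes Isg15 from proteins, at 185, 25.3, 256 and 161 CPM. Each of these genes was lowest in WT anti-PD1. Irf7, the factor that amplifies type I interferon, was at 399, 92.4, 579 and 239.6 CPM. Ifi44 had no UMI in WT anti-PD1 and was at 143, 128 and 104 CPM in the other 3, at least 31.9-fold lower than in WT IgG by a limit of 3 counts.

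As a list, 23 of 24 interferon-stimulated genes at the minimum level were lower for anti-PD1 over IgG in WT (median -2.32), and 18 of 22 were higher for A159V over WT under anti-PD1 (median 1.89). With IgG, 1 of 27 was higher in A159V (Ifit1bl1, median 0.29) and none lower. In anti-PD1 over IgG in A159V, the comparison without WT tumors, 7 of 27 were lower (Ifit1bl1, Ifit3b, Ifih1, Ifit3, Irf7, Ifit2 and Isg20) and none higher, with a median of -0.69 and 26 of 27 below 0. Thus anti-PD1 libraries had lower levels than IgG libraries in both genotypes, by less in A159V, and the difference between the 2 ratios was not tested. Ifih1, the RNA sensor MDA5, was at 452, 139, 612 and 212 CPM, with -1.51 (-1.92 to -1.10) for anti-PD1 over IgG in A159V. Without predicted doublets the list gave 24 of 24 lower (-2.72), 20 of 22 higher (1.71) and, within A159V, 10 of 27 lower (-0.82).

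The interferon difference was not found in Cd209a+ cells alone. The list median for anti-PD1 over IgG in WT was -2.38 in type 1 dendritic cells (21 of 24 lower), -2.36 in mature dendritic cells (20 lower), -1.71 in C1q macrophages (20 lower) and -1.01 in Ly6c2 monocytes (12 lower). A159V over WT under anti-PD1 gave 2.03, 1.81, 1.27 and 0.87 in these gates. Over all other cells of the libraries together it was -1.43 and 0.94. Within A159V, where anti-PD1 over IgG gave -0.69 in Cd209a+ cells, the median was -0.036, -0.0051, -0.37 and -0.25 in the same 4 gates.

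Genes of the interferon gamma response, induced by the cytokine of activated T and NK cells, showed 9 of 15 lower in anti-PD1 over IgG in WT (median -1.31) and 7 of 13 higher, with Icam1 lower, in A159V over WT under anti-PD1 (1.17). With IgG, 6 of 15 were lower in A159V (Iigp1, Cxcl9, Icam1, Irf1, Gbp2 and Gbp5, median -0.49), and within A159V 2 of 12 were higher with anti-PD1 (Iigp1 and Irf1, median 0.16). Gbp2, a guanylate-binding protein, was at 349, 86.5, 141 and 247 CPM. Iigp1, an immunity-related GTPase, was at 346, 58.1, 60.6 and 217 CPM, low in WT anti-PD1 and in A159V IgG alike. Cxcl10, induced by either interferon, was at 2092, 369.8, 1434 and 1332 CPM and was detected in 58.8%, 20.8%, 36.7% and 43.5% of the cells (44.1%, 13.8%, 34.9% and 29.3% thinned).

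MHC class II genes seldom passed 2-fold. Of the list, 0 of 8, 1 of 9 (H2-DMb2, lower), 0 of 9 and 0 of 8 genes passed 2-fold in the 4 comparisons, in the order A159V over WT under IgG, A159V over WT under anti-PD1, anti-PD1 over IgG in WT and anti-PD1 over IgG in A159V. Over all genes 13.04%, 15.02%, 28.6% and 5.26% passed it in either direction, so that with 8 or 9 genes such counts differ little from the background except for anti-PD1 over IgG in WT. The medians were 0.76 (8 of 8 genes above 0), 0.087, 0.40 and -0.16, and without predicted doublets 0.048, 0.21, -0.095 and -0.070. H2-Ab1 and Cd74, which chose the cells, are not in these counts. H2-Aa, not used by the rule, was at 3626, 5929.8, 6683 and 5839 CPM, lowest in WT IgG. MHC class I genes had 1 of 15 lower with A159V under IgG (Psmb10), and 6 genes (Psmb9, Nlrc5, Psmb10, Psme2, H2-T22 and Psmb8, mostly immunoproteasome parts) that were lower in WT anti-PD1 than in both WT IgG (of 13) and A159V anti-PD1 (of 14). Without predicted doublets, 8 of 14 were lower for anti-PD1 over IgG in WT, but only Psmb9, Nlrc5 and H2-T22 were past 2-fold against A159V anti-PD1. B2m, the common light chain of MHC class I, was at 2213, 1812, 1858 and 1834 CPM.

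**Figure D5:**
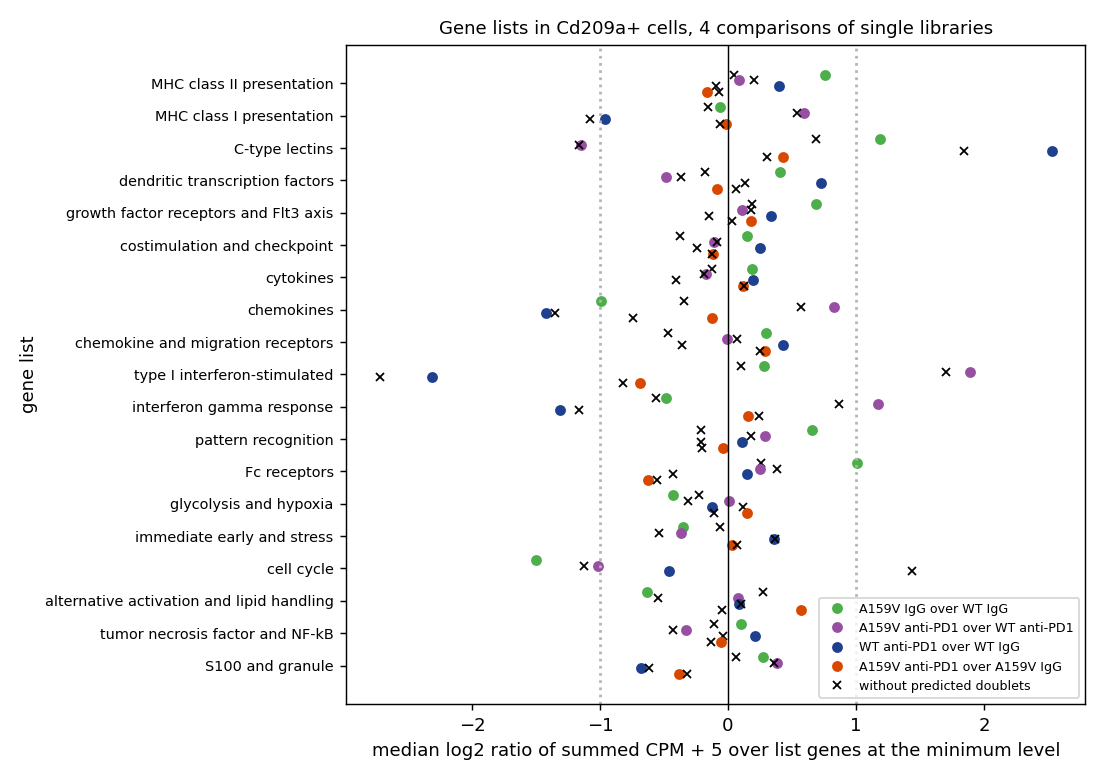
Median log2 ratio (x axis) over the genes of each list (y axis) at the minimum level in Cd209a+ cells for the 4 comparisons, with crosses for values without predicted doublets and dotted lines at 2-fold. The type I interferon-stimulated list lies at -2.32 for anti-PD1 over IgG in WT and 1.89 for A159V over WT under anti-PD1, and MHC class II lies within 2-fold in all 4.

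Among transcription factors, Irf4, which directs type 2 dendritic cells, was at 15.8, 124, 47.1 and 23.04 CPM, from 6, 83, 7 and 10 UMIs, with 2.63 (1.70 to 3.55) for anti-PD1 over IgG in WT and -2.20 (-2.99 to -1.41) for A159V over WT under anti-PD1. Over all other cells of the libraries together, the Irf4 ratio for A159V over WT under anti-PD1 was -2.18, nearly the same as in Cd209a+ cells. Of the other gates in WT anti-PD1, T cells had the highest Irf4 level. Irf8 was at 203, 65.6, 94.2 and 177 CPM, lowest where Irf4 was highest. Without predicted doublets Irf8 was at 327, 53.3, 70.8 and 168 CPM. Klf4, needed by some type 2 dendritic cells, was at 92.4, 394, 135 and 154 CPM, and was again highest in WT anti-PD1. Of 20 factors at the minimum in anti-PD1 over IgG in WT, 6 were higher (Irf4, Klf4, Nfil3, Bcl11a, Id2 and Tcf4) and Irf8 was lower. In A159V over WT under anti-PD1, 5 of 20 were lower (Irf4, Klf4, Nfil3, Id2 and Zeb1) and Irf8 was higher. With IgG, Irf8 was the only 1 of 16 past 2-fold in A159V over WT, lower at -1.07 (-1.85 to -0.29), and within A159V only Cebpb was higher. Without predicted doublets Zeb1 was lower beside Irf8 under IgG, Irf8 in place of Cebpb was higher within A159V, and Bcl11a and Tcf4 were not past 2-fold for anti-PD1 over IgG in WT.

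Chemokines that draw leukocytes varied in both directions. In anti-PD1 over IgG in WT, 6 of 11 were lower (Ccl2, Ccl5, Cxcl10, Cxcl9, Ccl4 and Cxcl1) and Ccl24 and Cxcl2 were higher. For A159V over WT, 5 of 10 were lower (Cxcl1, Ccl2, Cxcl9, Cxcl2 and Ccl3) and Ccl6 and Ccl9 higher under IgG, and 4 of 8 were higher (Ccl2, Cxcl10, Ccl6 and Ccl4) and Ccl24 lower under anti-PD1. Without predicted doublets, 3 of 9 were lower (Cxcl2, Cxcl9 and Ccl3) and Ccl6 higher under IgG, and 2 of 7 were higher (Cxcl10 and Ccl4) and 2 lower (Ccl24 and Cxcl2) under anti-PD1. For anti-PD1 over IgG in WT, 6 of 10 were then lower, Ccl3 in place of Cxcl1. Ccl24 (eotaxin-2) had UMIs in WT anti-PD1 only, at 136 CPM, at least 17.1-fold higher than in WT IgG. Ccl5, a T cell attractant, was at 209, 10.4, 188 and 27.6 CPM, lower with anti-PD1 in both genotypes (-3.79 (-4.58 to -3.00) in WT and -2.57 (-3.43 to -1.70) in A159V). Ccl2, which recruits monocytes, was at 663, 13.4, 114 and 1364 CPM, but in A159V anti-PD1 90.2% of its 592 UMIs came from 1 cell. Spp1 (osteopontin), at 1347, 13.4, 101 and 435 CPM, had 86.8% of its 189 UMIs in A159V anti-PD1 in 1 cell. Without predicted doublets Ccl2 was at 101, 12.5, 120.4 and 73.4 CPM and Spp1 at 59.8, 12.5, 77.9 and 19.0 CPM, so neither is used below as a level of the Cd209a+ cells as a whole.

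Of the costimulation and checkpoint list, 1 of 12, 2 of 13, 4 of 14 and 0 of 11 genes passed 2-fold in the same order of comparisons, and without predicted doublets 1 of 13, 2 of 14, 2 of 15 and 0 of 10. Over all genes 13.04%, 15.02%, 28.6% and 5.26% passed it with all cells, and in a list of this size the counts differ little from that background. Cd86, a ligand of CD28, was at 813, 1145, 653 and 975 CPM, and Cd274 (PD-L1), a ligand of the receptor the antibody blocks, at 203, 201, 349.97 and 329.5 CPM. Pdcd1lg2 (PD-L2), its other ligand, was at 21.1, 116, 20.2 and 48.4 CPM, higher by 2-fold or more in WT anti-PD1 than in either WT IgG or A159V anti-PD1. Il12b, the subunit of interleukin 12, had no UMI in any library, where 3 counts would be 7.92, 4.47, 20.2 and 6.91 CPM. Il1b was at 649.7, 762, 835 and 906 CPM. In anti-PD1 over IgG in WT, where 16.0% of all genes were higher, Flt3 alone of 8 growth factor receptors at the minimum was higher, at 1.44 (0.84 to 2.04). That ratio was 0.73 without predicted doublets, where 0 of 8 receptors were higher and Crlf2 was lower. In the other 3 comparisons the Flt3 ratio was 0.69 (-0.20 to 1.57) for A159V over WT under IgG, -0.41 (-0.85 to 0.035) for A159V over WT under anti-PD1 and 0.34 (-0.45 to 1.12) for anti-PD1 over IgG in A159V. Within the S100 and granule list, Ifitm3, an antiviral membrane protein, was at 3977, 1200.3, 4812 and 3673 CPM, and 6 of 18 genes were higher in A159V anti-PD1 than in WT anti-PD1 (Ifitm6, Ifitm3, Ifitm2, Lyz2, S100a10 and Ifitm1). Nr4a2, an immediate early nuclear receptor, was at 214, 889, 195 and 382 CPM, and Tnfaip3, an inhibitor of NF-kB, at 127, 455, 128 and 141 CPM, both highest in WT anti-PD1. Glycolysis and hypoxia genes had at most 3 members past 2-fold in any comparison, with Mif, Eno1 and Pgam1 lower for anti-PD1 over IgG in WT, where none of 14 was past 2-fold without predicted doublets (median 0.12).

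Among single genes outside these lists, the largest ratios for A159V over WT under IgG were those of Chn2 (2.19), Wdfy2 (2.05), Ifi214 (2.02) and Hist1h1c (2.01), which were 1.69, 1.67, 1.68 and 1.66 without predicted doublets. The 10 lowest genes of that comparison, led by Shisal2b, Gm45589 and Rorb, had no UMI in A159V IgG and were each highest in the tumor or stroma gate, and Rorb had no UMI in any library once predicted doublets were removed. Pi16 (4.34) and Cacnb2 (3.99) followed Cd209e and Ccl24 for anti-PD1 over IgG in WT, and for A159V over WT under anti-PD1 the same Pi16 (-3.01) and Cacnb2 (-2.76) were among the lowest. Pi16 was highest in the stroma gate, its ratio over all other cells of the libraries was 4.52 and -3.78 in these comparisons, and 63.97% of its 136 UMIs in WT anti-PD1 were in 1 cell. Without predicted doublets Pi16 had 2.53 and -1.61, and Cacnb2 3.46 and -2.61. Bst2 (tetherin), at 1495, 139, 1097 and 799.5 CPM, and Isg20, an exonuclease (2.42 for A159V over WT under anti-PD1), followed the interferon list. Within A159V, Vps35, a retromer subunit, was higher with anti-PD1 (2.28, interval 0.92 to 3.64) but rested on 3 UMIs in A159V IgG. Fgfr1 (-2.01), Slamf9 (-1.92) and Ripk2, a kinase of bacterial sensing (-1.75), were lower there.

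Calls were set side by side for the 2 comparisons of a kind that use no library in common. Between genotypes, 8 genes were higher in A159V under both antibodies, which is 5.76% of the 139 with IgG and 5.52% of the 145 with anti-PD1 (Spon1, Ccnd2, Ccl6, Magohb, Fcer1g, Ero1l, Tmem134 and Btg2), beside a background of 6.40% higher with anti-PD1. Lower in both were 9, which is 6.21% of 145 and 4.62% of 195 (Icam1, Sgk1, Ints6, Hsph1, Morrbid, Zswim6, Fosb, Pcna and Odc1), beside a background of 8.61% lower with anti-PD1. Of the 139 higher with IgG, 11 (7.91%) were lower with anti-PD1, and of the 145 lower with IgG, 13 (8.97%) were higher with anti-PD1, beside the same backgrounds of 8.61% and 6.40%. These shares were near the background in either direction. Between antibodies, 18 genes were higher with anti-PD1 in both genotypes, 4.77% of the 377 in WT and 29.0% of the 62 in A159V, and 12 were lower in both, 4.05% of 296 and 23.5% of 51, beside backgrounds of 16.0% and 12.6% in WT. Here the shares of the A159V calls were above the background. The 12 were Ccl5, Fgfr1, Ifit3b, Ifih1, Ifit3, Irf7, Ifit2, Isg20, A330040F15Rik, Ndufa12, Herc6 and Gtf2a2, and 6 of them belong to the interferon-stimulated list. Of the 377 and 296 called in WT, 6 (1.59%) and 7 (2.36%) were called the opposite way in A159V, beside backgrounds of 2.37% lower and 2.89% higher.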

How the data were processed

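The authors deposited raw UMI counts per gene and barcode from 10x Genomics 3′ libraries, filtered by Cell Ranger (7.2.0 in the file headers, 5.0.1 in the submitters' processing notes) on the 10x mouse mm10 reference with introns counted. Their later steps (removal of ambient RNA and of doublets) are not in these counts. Barcodes with more than 500 genes were kept, and members were gated by the rule, not clustered. UMIs were summed over members per library and given as CPM with exact Poisson intervals. Ratios added 5 CPM, and intervals of ratios came from the delta method. Shares were given exact binomial intervals by Clopper-Pearson and their folds Katz intervals, all at 95%. A doublet score was computed per library, calling a share of barcodes that grows with the number of cells in the library, and calls were not removed from the main values. Thinned shares of cells with a single gene were expected values at 1500 UMIs per cell, and the thinned shares with monocyte and dendritic genes came from 20 draws. Thinned counts of genes past 2-fold and thinned folds of shares came from 1 draw each. Thinning of members left out 0, 3, 3 and 2 shallower cells. Members and gene lists were chosen with earlier results of these data known. With 1 library per group no test was run across genes, and every ratio describes those libraries. Named genes were the markers and rule genes, the 10 highest and lowest ratios per comparison, without ribosomal, mitochondrial, hemoglobin, immunoglobulin, T cell receptor and rule genes and genes over 5-fold higher in another gate of at least 50 cells, and list genes past 2-fold or at the ends of their list. Others named by level were chosen after their values were seen. Of 32285 features, 32158 matched GENCODE M21, used for GRCm38 coordinates. Promoter windows came from RefSeq (GRCm38.p6). Python 3.11.15, numpy 2.4.6, scipy 1.17.1, pandas 2.3.3, scikit-learn 1.9.0 and matplotlib 3.10.9 were used. The scripts were tested on simulated counts.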

Additional observations from a re-analysis of the deposited data

Results flagged for a closer look

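Some genes ran in opposite directions in the 2 genotypes or under the 2 antibodies, each by 2-fold or more. With 1 library per group none of these differences was tested. The log2 ratio of anti-PD1 over IgG was -1.24 in WT and 1.58 in A159V for Cnih4, -2.47 and 1.76 for Iigp1, 2.42 and -1.51 for Lifr (the receptor of leukemia inhibitory factor), and 1.53 and -1.69 for Mtss1. It was -5.18 and 3.52 for Ccl2 and -6.20 and 2.06 for Spp1. In A159V anti-PD1, 90.2% of the Ccl2 UMIs and 86.8% of the Spp1 UMIs were in 1 cell, and without predicted doublets both ratios within A159V were below 0.

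The log2 ratio of A159V over WT was 1.88 with IgG and -2.05 with anti-PD1 for Lifr, 1.90 and -1.61 for Mgl2, 1.25 and -2.14 for Mrc1, 1.83 and -1.55 for Pak1, 2.05 and -1.18 for Wdfy2, -2.48 and 6.22 for Ccl2, and -3.67 and 4.58 for Spp1. Without predicted doublets the ratios under IgG were 0.24 for Ccl2 and 0.36 for Spp1. The median over the C-type lectins was 1.19 and -1.15. By the same removal Mgl2 was at 82.8, 1190, 347 and 429 CPM and Mrc1 at 133, 1328, 220 and 266 CPM in the order WT IgG, WT anti-PD1, A159V IgG, then A159V anti-PD1. Both genes were highest in WT anti-PD1 and lowest in WT IgG there too. Each pair of ratios above includes WT anti-PD1, the library that stood apart.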

How the results depend on the processing

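No paired analysis was possible because each group held 1 library, and for the same reason no replicate could be left out. Settings on cells without Fcgr1, without collagen UMIs and without tumor markers were chosen after seeing the data. Of 40 alternative folds of shares, 34 lay within the counting interval of the reported fold. The others are for A159V over WT under anti-PD1 (1.29 among the 3 dendritic gates, 0.580 without Ly6c2, 0.389 without Ly6c2 and Fcgr1) and for anti-PD1 over IgG in WT (1.15, 2.50 and 3.46). Of 56 alternative counts of genes past 2-fold, 39 were within 1.5 times the reported count. For A159V over WT under IgG (284), the count was 136 without predicted doublets, 705 at a minimum of 50 CPM, 161 with cells weighted equally, 488 without Ly6c2, 732 without Ly6c2 and Fcgr1, 177 without tumor markers and 444 thinned. Without predicted doublets, 40 of its 139 higher and 31 of its 145 lower genes were still past 2-fold. Under anti-PD1 (340 genes) it was 568 at 50 CPM, 793 without collagen UMIs and 558 thinned. The count for anti-PD1 over IgG in WT (673) was 1130 at 50 CPM and 1038 without collagen UMIs, where 7 cells of WT anti-PD1 were left. For anti-PD1 over IgG in A159V (113), it was 238 with at least 2 Cd209a UMIs, 354 at 50 CPM, 239 without Ly6c2, 571 without Ly6c2 and Fcgr1 and 358 thinned. The subset without Ly6c2 and Fcgr1 held 15, 45, 17 and 24 cells.

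Of 1456 alternative ratios of named genes, 1355 kept their direction past 2-fold, 88 kept it below 2-fold and 13 changed sign. For A159V over WT under anti-PD1, cells without Ly6c2 and Fcgr1 gave -0.28 for Ccl2, -0.47 for Isg20, -0.053 for Phf11d and -0.79 for Spp1, and cells without collagen UMIs gave 1.67 for Top2a. For anti-PD1 over IgG in A159V, Ccl2 was -0.68 without predicted doublets, and -0.78 without Ly6c2 and Fcgr1, where Iigp1 was -1.62. Spp1 was -1.79 without predicted doublets, -0.92 with at least 2 Cd209a UMIs, -2.84 without Ly6c2 and Fcgr1, -0.58 without tumor markers and -0.81 thinned. Of 112 alternative list medians, 96 of lists past 2-fold in the median kept that, 16 were below 2-fold in the same direction and 0 changed sign. The cause of these changes was not tested.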

Other observations

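Several further gene lists were measured in Cd209a+ cells. Of 21 immediate early and stress genes for anti-PD1 over IgG in WT, 4 were higher (Nr4a2, Nr4a3, Fosl2 and the heat shock gene Hspa1b) and 3 lower (Jun, Klf2 and Egr1), and of 20 for A159V over WT under anti-PD1, 5 were lower (Hspa1b, Nr4a2, Fosb, Nr4a3 and Hsp90aa1) and Btg2 was higher. Over all genes, 16.0% were higher and 12.6% lower in the first comparison, and 6.40% higher and 8.61% lower in the second. The counts for anti-PD1 over IgG in WT were near that background. Without predicted doublets, 4 of 20 were higher in WT (Nr4a2, Nr4a3, Fos and Fosb) and only Btg2 lower, and under anti-PD1 4 of 20 were lower (Hspa1b, Hsp90aa1, Egr1 and Nr4a2) and Btg2 higher. Fcgr2b, the inhibitory Fc receptor, was at 84.5, 304, 175 and 111 CPM in the order WT IgG, WT anti-PD1, A159V IgG, then A159V anti-PD1, and Fcer1g, the signaling chain shared by activating Fc receptors, at 1679.7, 932, 3439 and 2260.4 CPM. Il1rn, the antagonist of the interleukin 1 receptor, was at 31.7, 174, 6.73 and 41.5 CPM, highest in WT anti-PD1. The chemokine receptor Cxcr4 was at 68.7, 203, 47.1 and 53.0 CPM, and Ccr2 at 293, 469.7, 437 and 537 CPM. Among pattern recognition genes 4 or 5 reached the minimum level, with Nlrp3, an inflammasome sensor, higher for A159V over WT under IgG and for anti-PD1 over IgG in WT. Of 10 or 11 alternative activation and lipid genes per comparison, Cd63 and the cathepsin Ctsl were past 2-fold in all 4, lower in A159V IgG and WT anti-PD1 than in WT IgG and higher in A159V anti-PD1 than in either. Without predicted doublets, of these calls only that of Ctsl within A159V was left, and Cd63 was at 4.60, 17.3, 21.2 and 19.0 CPM. The NF-kB list had at most 4 of 15 or 16 genes past 2-fold, and 0 of 14 for anti-PD1 over IgG in A159V. Without predicted doublets these were at most 5 of 15 or 16, and 1 of 12. With all cells, 13.04%, 15.02%, 28.6% and 5.26% of all genes passed 2-fold, in the order of comparisons given for MHC class II. In a list of this size the NF-kB counts differ little from that background.

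In the cell cycle list, Stmn1 and Pcna were lower for A159V over WT under IgG. Without predicted doublets 1 gene of that list reached the minimum level and 0 were lower, and for anti-PD1 over IgG in WT 3 of 3 were higher (Top2a, Tubb5 and Pcna) where Stmn1 had been lower with all cells. The 8 cycling markers summed to 565, 355, 53.8 and 94.5 CPM. WT IgG also held the most UMIs of tumor markers, 407, 0, 53.8 and 127 CPM in the same order, and the part of tumor RNA in the cycling genes was not tested. A cell of WT IgG held 55 UMIs of Ccl17, a chemokine of dendritic cells.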
